A study of Homo sapiens with 12 samples.

Results

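Small nucleolar RNAs (snoRNAs) and small Cajal body RNAs (scaRNAs) were followed in Cal27 and HN30, a pair of established head and neck squamous cell carcinoma lines, with and without interferon alpha (IFNα). A row of the gene table was a member when its symbol began with SNORD, SNORA or SCARNA and a number and its mean count over the 12 samples was at least 10, the SNHG host genes being left out. The rule kept 87 rows of the 851 with such a symbol, among 60099 genes in all. Of these 87, 37 were C/D snoRNAs (SNORD), 37 were H/ACA snoRNAs (SNORA) and 13 were scaRNAs (SCARNA). The last row below the rule was SNORA26, with a mean count of 9.75, and the first above it was SNORD69, with 10.25. No treatment effect entered the rule.

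snoRNAs guide the chemical modification of other RNAs. A C/D snoRNA carries the C and D boxes, binds fibrillarin, NOP56, NOP58 and SNU13, and guides ribose methylation, whereas an H/ACA snoRNA folds into hairpins, ends shortly after an ACA, binds dyskerin, GAR1, NHP2 and NOP10, and guides pseudouridylation. Most of them modify ribosomal RNA in the nucleolus, a few (U3, U14, U17 and U22 among those listed here) are instead known for the cleavage of pre-rRNA, and scaRNAs modify the spliceosomal snRNAs in Cajal bodies. In human cells nearly all are cut out of the introns of host genes, which may code for ribosomal proteins, for other proteins or for no protein at all.

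The study compared untreated cells with cells given 20 or 200 ng/ml IFNα for 24 h. Samples carry letters A to F and a replicate number. Letters A and D were the untreated controls, B and E had the low dose of 20 ng/ml and C and F the high dose of 200 ng/ml, with 2 replicates each, so that A-C and D-F are 2 line sets with every dose. Neither the labels nor the paper's text says which set is Cal27 and which is HN30. Total RNA was depleted of rRNA and its fragments were selected for size, so intact RNAs of the length of a C/D snoRNA may have been captured in part only, and the count of a short member is a relative measure.

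To show what the members look like, the annotated sequences of the most abundant member, of 3 members on which the dose comparison turns and of their close relatives are given here. All were read from GENCODE release 29 (GRCh38) at the positions of the deposited table. In the C/D type the capitals mark the first TGATGA (C box letters) and, where it lies in the part shown, the last CTGA (D box letters), in the H/ACA type the ACA within the last 6 bases.
SNORD17 (chr20:17962710-17962946, minus strand, intron of SNX5): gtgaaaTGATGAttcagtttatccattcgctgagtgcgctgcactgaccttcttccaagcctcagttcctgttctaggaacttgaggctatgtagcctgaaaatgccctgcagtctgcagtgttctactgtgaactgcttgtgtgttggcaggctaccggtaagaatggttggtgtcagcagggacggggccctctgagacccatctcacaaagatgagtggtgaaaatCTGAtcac
SCARNA7 (chr3:160515087-160515236, minus strand, intron of KPNA4, the first 150 of its 330 bases): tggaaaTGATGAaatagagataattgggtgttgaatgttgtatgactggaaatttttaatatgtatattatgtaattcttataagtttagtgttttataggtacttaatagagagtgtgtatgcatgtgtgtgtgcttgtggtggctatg
SNORD11B (chr2:202291332-202291421, plus strand, intron of NOP58): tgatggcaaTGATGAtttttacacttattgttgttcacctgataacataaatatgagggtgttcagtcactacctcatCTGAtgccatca
SNORD11 (chr2:202293051-202293134, plus strand, intron of NOP58): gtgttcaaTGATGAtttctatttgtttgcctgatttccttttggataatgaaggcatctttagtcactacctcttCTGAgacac
SNORA22 (chr7:65755526-65755659, plus strand, intron of CCT6P1): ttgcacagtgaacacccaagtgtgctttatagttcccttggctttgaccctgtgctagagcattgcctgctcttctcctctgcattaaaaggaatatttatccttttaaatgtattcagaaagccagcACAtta
SNORA22B (chr7:56055365-56055502, plus strand, intron of CCT6A): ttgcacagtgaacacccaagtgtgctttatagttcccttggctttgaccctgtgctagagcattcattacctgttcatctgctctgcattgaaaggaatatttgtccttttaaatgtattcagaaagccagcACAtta

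SNORA22 and SNORA22B shared 128 identical bases over an alignment of 138 (92.8%), so a short read may fit either of them, whereas SNORD11 and SNORD11B, neighbours in the same gene, shared 57 of 91 (62.6%). Over the members with a single annotated transcript, TGATGA was found in 22 of 32 C/D snoRNAs, in 10 of 13 scaRNAs and in 1 of 36 H/ACA snoRNAs. It was found in the first 90 bases of 2.65% of the 204409 annotated transcripts of that length or longer. An ACA within the last 6 bases was found in 33 of 36 H/ACA snoRNAs, in 4 of 32 C/D snoRNAs and in 7.69% of those annotated transcripts. These letters were searched on the transcribed strand only, and the letters alone do not define a box.

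Total counts lay between 10517448 and 16056734 per sample, and the members held 0.0289% to 0.0444% of them. The dose labels were checked with 12 interferon-stimulated genes, all of which were called higher at 200 ng/ml (median log2 fold change 4.39) and at 20 ng/ml (4.16). Between the doses 0 of the 12 were called (median 0.43), so this check separates treated from untreated samples and not one dose from the other. Of 6 epithelial and squamous markers, 5 were detected in every sample, while KRT14 had 494 to 730 counts in A-C and 0 to 3 in D-F. Among markers of other cell types, PTPRC had at most 2 counts and PECAM1 at most 12 in any sample, and COL1A1 had 113 to 293. In bulk RNA, fewer cells of a type and less RNA per cell cannot be told apart. The library C2 stood apart for small RNAs. It had the lowest CPM (counts scaled to the library total) of all 12 samples for 18 of the 87 members, against at most 9 in any other sample, and the highest for 13, as had E1. Against C1 the median log2 ratio was -0.66 for the 20 members with a span of 200 bp or more and -0.04 for the 67 shorter ones. In C2, 12 members had a count of 0 or 1, against 3 to 6 elsewhere. The RNA subunit of RNase MRP (RMRP) had 5491 counts in C2 against 9851 in C1. Class sums, called members and host medians that involve letter C are therefore given with and without C2. Most values of uncalled members, and the sum of the U3 copies, include C2.

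The members spanned a wide range of abundance. Mean counts ran from 10.25 to 1297 with a median of 21.1, and 74 of the 87 had fewer than 50. SNORD17, a C/D snoRNA that methylates the large-subunit rRNA and lies in an intron of the sorting nexin gene SNX5, had a mean TPM, which is scaled for length and depth, of 703. It was followed among the C/D snoRNAs by SNORD58B (115 TPM) and SNORD26 (77.9 TPM). The leading H/ACA snoRNA was SNORA73B (U17b, 156 TPM), known for pre-rRNA cleavage, ahead of SNORA57 (52.1 TPM) and SNORA4 (49.7 TPM). Of the scaRNAs, SCARNA5 had 295 TPM, SCARNA7 153 and SCARNA13 74.3. SNORD17 alone held 24.2% to 30.9% of the members' counts in 11 samples and 14.5% in C2. The row named SCARNA15 spans 4325 bp and is annotated as a processed transcript, AC105339.2, so its counts do not measure the scaRNA. The imprinted snoRNA clusters had few or no counts, which for RNAs this short does not show that they were silent. Of the 45 rows of SNORD113 and SNORD114, 44 had no count in any sample, and of the 83 rows of SNORD115 and SNORD116 none reached a mean of 10. The latter rows had 21 counts in all in A-C and 167 in D-F. SNHG14 and PWAR6, transcripts of the same locus, were also higher in untreated D than in A (log2 fold changes 3.91 and 4.80, edgeR adjusted p 2.88e-05 and 0.000632).

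Pooled over both line sets, the summed levels of all 3 classes overlapped between the controls and 200 ng/ml IFNα. The C/D snoRNAs summed to 177 ± 23.3 CPM in the controls, 169 ± 6.57 at 20 ng/ml and 148 ± 34.6 at 200 ng/ml (SD, n = 4 each). Without C2 the mean at 200 ng/ml was 165 ± 9.96 CPM (n = 3). SNORD17 set much of this sum, and without it the C/D snoRNAs had 66.7 ± 7.01, 64.5 ± 4.80 and 65.5 ± 7.42 CPM. With C2 left out as well, the value at 200 ng/ml was 68.7 ± 4.64 CPM (n = 3). The H/ACA snoRNAs summed to 82.97 ± 4.11, 92.9 ± 4.70 and 83.3 ± 7.42 CPM. All 4 samples at 20 ng/ml (87.2 to 96.9 CPM) lay above the 4 controls (77.7 to 86.6 CPM), while those at 200 ng/ml overlapped both. In A-C the H/ACA sums were 81.8 and 86.6 CPM in A and 96.6 and 96.9 CPM in B, and the 3 all-or-none members of TAF1D described below take part in them. The scaRNAs summed to 134 ± 16.0, 138 ± 21.6 and 137 ± 17.6 CPM. Without C2 the means at 200 ng/ml were 85.0 ± 8.12 CPM for H/ACA and 144.9 ± 8.58 CPM for scaRNAs (n = 3). The scaRNA sum was 113 to 136 CPM in the 6 samples of A-C and 145 to 160 CPM in the 6 of D-F, so the line sets did not overlap. SCARNA5 carried this difference, as sums computed after the data were seen show. Without it the sum was 78.1 to 97.1 CPM in A-C and 83.1 to 92.0 CPM in D-F, and with the SCARNA15 row left out as well it was 70.4 to 86.7 and 79.4 to 85.3 CPM, so that the sets overlapped. The ranges of the line sets for the H/ACA sum overlapped too. No p is given for these sums, because members are not replicates.

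**Figure D1:**
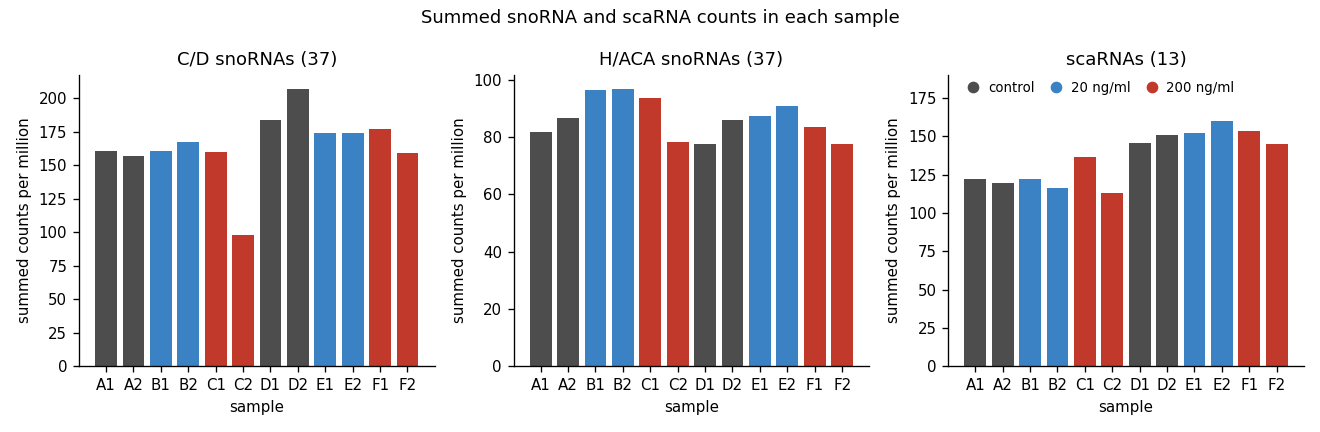
Bars give the summed CPM of the 37 C/D snoRNAs, 37 H/ACA snoRNAs and 13 scaRNAs in each of the 12 samples, coloured by dose. C2 has the lowest C/D sum (97.9 CPM), and the scaRNA sums of D-F are all above those of A-C, which is no longer so without SCARNA5.

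The level of SNORD17 in each sample shows where the C/D sum varied. Its counts were 1202 and 1427 in A1 and A2, 1288 and 1484 in B, 1121 and 442 in C, 1822 and 1971 in D, 1186 and 1341 in E and 1187 and 1095 in F. In CPM the controls of D (126 and 132) were above every other sample, and C2 (42.0) was below every other sample. At 200 ng/ml against control the fit gave a log2 fold change of -0.39 ± 0.19 (SE), with a 95% interval from -0.82 to 0.05 and an edgeR adjusted p of 0.261. It was -0.37 in A-C and -0.41 in D-F, and neither was called. In CPM, C1 lay between A1 and A2, so the A-C value rests on C2. No fit of SNORD17 without C2 is given here.

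No member was called over both line sets. Called means a change of at least 2-fold with an adjusted p of at most 0.05 in edgeR's quasi-likelihood test, adjusted over 19944 genes, of which 86 were members (SNORA40 did not pass the filter on low counts). At 200 ng/ml, 0 of 86 members were called, against 2.14% of all genes tested. At 20 ng/ml it was 0 of 86, against 1.15%, and between the doses 0 of 86, against 0.0451%. An unadjusted p of at most 0.05 was reached by 10 members at 200 ng/ml (11.6% of the members, 23.9% of all genes), of which 3 also had a 2-fold change, a rule met by 4.24% of all genes. At 20 ng/ml such a p was reached by 7, of which 4 had a 2-fold change (3.25% of all genes). DESeq2 called 0 members at 200 ng/ml and 2 at 20 ng/ml, SNORA1 and SNORA18, which are described below. Between the doses 4 members had such a p, 3 of them with a 2-fold change (1.9% of all genes), and DESeq2 called 0.

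The precision of these zeros differed with abundance. At 200 ng/ml the 95% interval of the log2 fold change lay wholly between -1 and 1 for 43 of the 86 members, and at 20 ng/ml for 50. Of the 8 members with a mean count of at least 100 it did so for 7, and of the 41 tested members with a mean count under 20 for 17. The median SE was 0.34 over the members and 0.19 over all genes. For the other 43 members at 200 ng/ml a 2-fold change lay within the interval, so the depth shows neither a change of that size nor its absence. By class the median at 200 ng/ml, as log2 fold change, was -0.02 for C/D, 0.03 for H/ACA and -0.08 for scaRNAs, beside -0.01 over all genes tested.

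Of the 5 members with the smallest p at 200 ng/ml, 3 were scaRNAs. In that class 4 of 13 (30.8%) had an unadjusted edgeR p of at most 0.05, beside 23.9% of all genes, and 0 were called. SCARNA21, which guides modification of the minor spliceosomal snRNA U12 and lies in the chromatin remodeller gene CHD3, gave -0.90 ± 0.25 on the log2 scale at 200 ng/ml (edgeR adjusted p 0.0507). For SNORD87, a C/D snoRNA of the noncoding host SNHG6, it was -1.32 ± 0.37 (adjusted p 0.0546). SCARNA17 (-1.02), SNORD42B (-0.86) and SCARNA10 (-0.92) followed, with adjusted p from 0.144 to 0.189. Leaving out D1 made SNORD87 called lower (-1.52), leaving out C1 made 3 members called lower (SCARNA17, SCARNA21 and SNORD15A), and leaving out C2 made SNORA17 called higher and SNORA1 lower. The 5 smallest p at 20 ng/ml were those of SNORA1, SNORA18, SNORA17, SCARNA21 and SNORA65, with adjusted p from 0.0859 to 0.213. SCARNA17, SNORD15A, SNORA17, SNORA1 and SNORA18 are among the members with all-or-none counts described below. SCARNA17 and SNORD15A had a count of at most 1 in 1 sample only, a replicate of letter C.

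Within A-C, where 2 samples stood against 2, 6 of 86 members (6.98%) were called at 200 ng/ml, 3 higher and 3 lower, beside 2.18% of all genes (1.41% higher and 0.767% lower). An unadjusted p of at most 0.05 was reached in A-C by 19 members (22.1% of the members, 22.3% of all genes), of which 12 also had a 2-fold change (5.41% of all genes). In D-F 0 of 86 were called, beside 2.09% of all genes. In D-F 4 members had an unadjusted p of at most 0.05, 3 of them with a 2-fold change (4.76% of all genes), and DESeq2 called 0. SCARNA7, SNORD11B and SNORA22 rose in A-C, and SCARNA21, SNORD3B-2 and SNORD87 fell. Without A2 or without C2 none of the 6 was called, and DESeq2 did not call SNORD11B (adjusted p 0.0910) or SNORD87 (0.0703). The response differed between the line sets for 3 of 86 members (SCARNA7, SNORD11B and SNORD87), beside 0.998% of all genes. For that difference 15 members had an unadjusted p of at most 0.05 (17.4% of the members, 17.7% of all genes), 13 of them with a 2-fold size (6.28% of all genes).

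**Figure D2:**
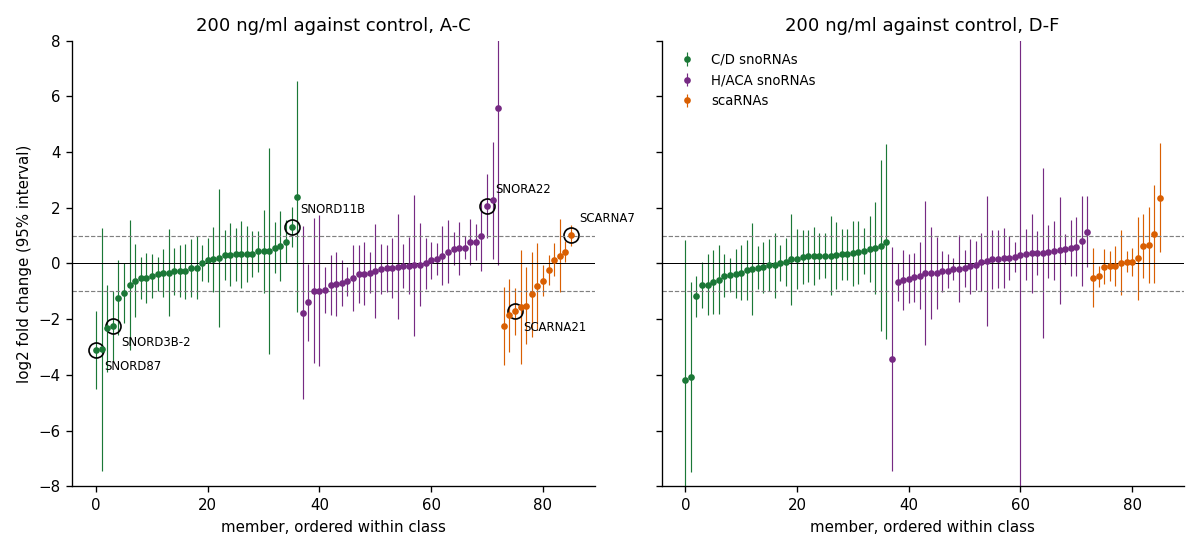
Points give the fitted log2 fold change of each tested member at 200 ng/ml against control with its 95% interval, in A-C and in D-F, ordered within each class, and intervals that run past the axis are cut. Circles mark the 6 called members of A-C, none is marked in D-F, and dashed lines mark a 2-fold change.

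SCARNA7 (U90), which guides ribose methylation of the U1 snRNA, had the most counts of the 6. Its counts were 376 and 340 in A, 407 and 497 in B, 562 and 532 in C, 468 and 388 in D, 249 and 303 in E and 254 and 242 in F. Both C samples (47.4 and 50.6 CPM) lay above all others, and both F samples (22.0 and 20.4 CPM) lay below both D samples (32.2 and 26.0 CPM). The log2 fold change was 1.01 ± 0.17 in A-C (edgeR adjusted p 0.00995) and -0.46 ± 0.17 in D-F (adjusted p 0.172). The responses differed between the line sets by -1.47 ± 0.24 (edgeR interaction contrast, adjusted p 0.0226). At 20 ng/ml the log2 fold changes were 0.39 and -0.31, with adjusted p of 0.390 and 0.451. KPNA4, the importin gene whose intron holds it, changed by 0.31 in A-C (adjusted p 0.039) and by 0.11 in D-F at 200 ng/ml, under 2-fold in both. Without C2 the change of SCARNA7 in A-C was 0.95 (adjusted p 0.0538), without A2 it was 0.79 (0.0639), and the difference between the line sets then had an adjusted p of 0.0606 and 0.0568. Without D1, F1 or F2 that difference was not called either, with adjusted p from 0.0666 to 0.0980.

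SNORD11B also moved in opposite directions. Its counts were 17 and 19 in A, 29 and 38 in B, 40 and 28 in C, 30 and 33 in D, 19 and 26 in E and 9 and 13 in F. In A-C both treated pairs lay above the controls in CPM, and in D-F both F samples lay below the other 4. The log2 fold change was 1.32 ± 0.32 in A-C (edgeR adjusted p 0.039) and -1.19 ± 0.33 in D-F (adjusted p 0.076), with a difference of -2.50 ± 0.46 (adjusted p 0.0338). Its host NOP58 codes for a core protein of the C/D particle and changed by 0.52 in A-C (adjusted p 0.0141) and by 0.11 in D-F, neither a 2-fold change. In none of the 12 fits that left out a sample was SNORD11B called, with adjusted p from 0.0529 to 0.190 in A-C and from 0.0511 to 0.105 for the difference.

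SNORA22, an H/ACA snoRNA in an intron of the pseudogene CCT6P1, had 10 and 9 counts in A, 14 and 11 in B and 39 and 22 in C. In D-F it had 36 and 31 counts in D, 22 and 34 in E and 25 and 10 in F, so that every sample of C, D and E had more counts than either sample of A. The log2 fold change was 2.06 ± 0.52 in A-C (edgeR adjusted p 0.044) and -0.60 ± 0.48 in D-F (adjusted p 0.588), and the difference of -2.66 was not called (adjusted p 0.0957). Without C2 the A-C value was 2.33 (adjusted p 0.0798), and the call held in 2 of the 12 fits that left out a sample. CCT6P1 itself had 55 and 60 counts in A and 63 and 44 in C. Reads of SNORA22 may have been shared with SNORA22B, as the sequences show.

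The 3 members that fell in A-C had their lowest counts of all samples in C. SCARNA21 had 30 and 50 counts in A, 20 and 25 in B and 13 and 5 in C, against 64 and 85 in D, 42 and 40 in E and 54 and 58 in F. Its log2 fold change in A-C was -1.72 ± 0.38 (edgeR adjusted p 0.0285) and -1.27 without C2 (adjusted p 0.131), and in D-F it was -0.09 ± 0.32. SNORD3B-2, a copy of the U3 gene, had 25 and 67 counts in A, 16 and 30 in B and 10 and 4 in C, with a log2 fold change of -2.25 ± 0.56 (adjusted p 0.0434), which was -1.82 without C2 (adjusted p 0.213) and was called in 1 of the 12 fits that left out a sample. SNORD87 had 10 and 15 counts in A, 16 and 23 in B and 1 in each of C1 and C2, and in D-F between 20 and 39. Pooled over replicates its CPM was 9.73 times higher in A than in C, with an exact 95% counting interval from 2.43 to 84.8 (without C2 10.3 times, 1.69 to 424). SNORD87 lies within an exon of an SNHG6 transcript, and 15 of the 16 members with the all-or-none counts described below also lie within such exons. The part of this overlap in its counts of 1 was not tested. The fitted difference between line sets was 3.54 ± 0.73 (edgeR adjusted p 0.0469), and it was called in 1 of the 12 fits that left out a sample (adjusted p 0.125 without C2) and not by DESeq2 (0.101). Its host SNHG6 had 310 and 413 counts in A and 362 and 134 in C.

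**Figure D3:**
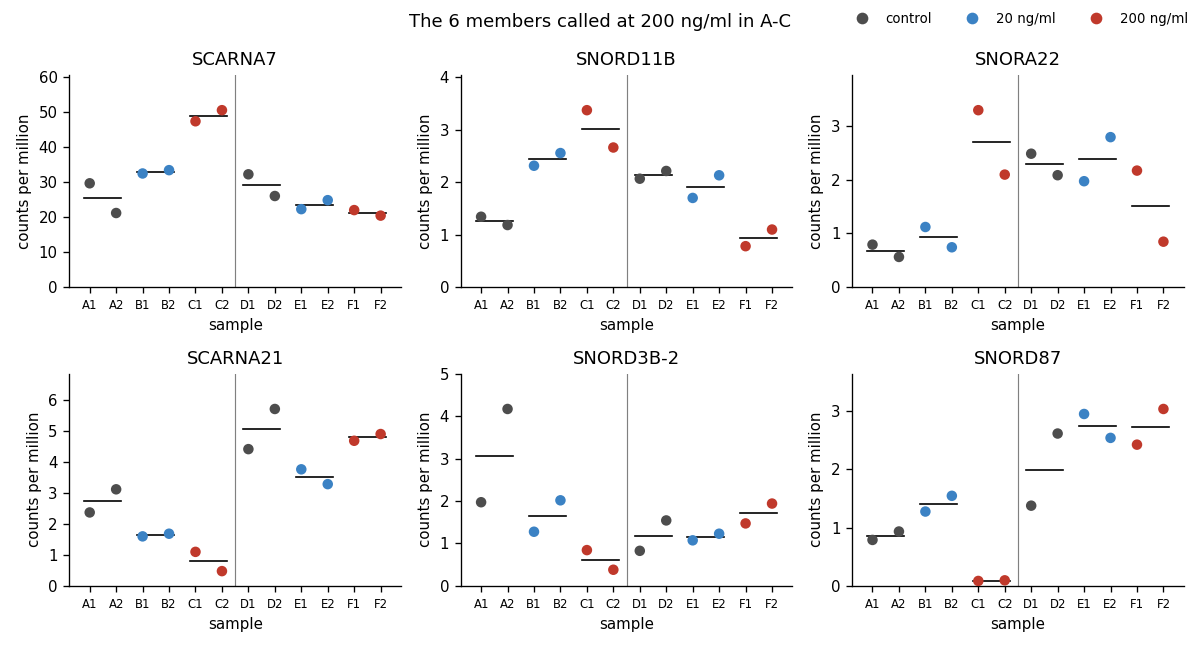
Points give CPM in each sample for the 6 members called at 200 ng/ml in A-C, coloured by dose, with the mean of each letter as a line. SCARNA7 and SNORD11B have their highest letter mean in C and their lowest in F, and SNORD87 has 1 count in each C sample.

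Of the members known for pre-rRNA cleavage, none was called at 200 ng/ml over both line sets, and SNORD3B-2 was the only one called in A-C. The list held 15 genes, of which SNORA73A, SNORD13, SNORD14C and SNORD118 lay below a mean count of 10, with at most 12 counts in any sample. SNORA73B had 173 to 361 counts, and its change at 200 ng/ml was 0.19 ± 0.13 on the log2 scale, with a 95% interval from -0.10 to 0.47. The U3 copies share nearly all of the mature sequence, so their reads cannot be divided with certainty, and their annotated rows run up to 791 bp. Summed over the 5 copies, U3 had 18.5 ± 8.64 CPM in the controls, 15.6 ± 3.17 at 20 ng/ml and 19.4 ± 11.9 at 200 ng/ml (SD, n = 4), and the ranges overlapped. The U3 sum of C2 (6.275 CPM) was the lowest of the 12 samples. SNORD3A alone, the copy with most counts (48 to 198), had a log2 fold change of -0.01 ± 0.26. The U14 copies SNORD14A, SNORD14D and SNORD14E had log2 fold changes of -0.47, -0.26 and -0.01, with adjusted p from 0.446 to 1. SNORD14B had 1 count in 4 samples and 25 to 45 in the other 8, across all doses, and had a log2 fold change of 0.62 ± 1.14. Of the 2 rows of SNORD22 (U22), both in the SNHG1 gene, the one starting at 62852910 had 1 count in 7 samples and up to 50 in the others, and the one at 62854161 had 1 count in 4 samples and up to 32 in the others.

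Such all-or-none counts were seen in 16 members, in which a letter had a count of at most 1 in one replicate and at least 10 in the other. Of these, 15 were among the 36 members that lie within an annotated exon of another gene's transcript on the same strand (41.7%), and 1 was among the other 51 (1.96%). The 4 H/ACA snoRNAs of TAF1D, a subunit gene of an RNA polymerase I factor, show the pattern plainly. SNORA1 had 55 and 45 counts in A, 36 in C2, 29 in D2 and 1 in each of the other 8 samples. SNORA18 had 124 counts in B2, 84 in C1, 68 in E2 and 1 in the rest, and SNORA40 had 145 in B1 and 1 in the other 11. In no sample did more than 1 of these 3 exceed a count of 10. SNORA8, from the same gene, had 27 to 62 counts throughout, and TAF1D had 838 to 2003. How the authors' counting divided reads between overlapping transcripts was not tested, and these 3 rows were not read as a response to dose, although SNORA1 and SNORA18 had fitted log2 fold changes of -4.42 and 5.48 at 20 ng/ml.

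**Figure D4:**
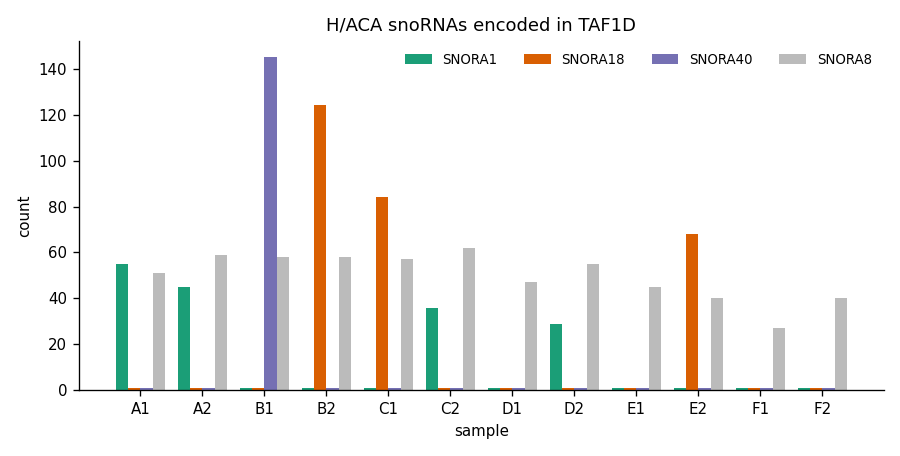
Bars give the count of the 4 H/ACA snoRNAs encoded in TAF1D in each sample. Of SNORA1, SNORA18 and SNORA40 at most 1 is above 10 counts in any sample, while SNORA8 stays between 27 and 62.

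Between the untreated line sets, 13 of 86 members (15.1%) were called, 6 higher in D and 7 lower, beside 26.6% of all genes (15.7% higher and 11% lower). DESeq2 called 9. Of the 13 scaRNAs 2 were called (15.4%), SCARNA17 higher and SCARNA2 lower. SCARNA17, which guides modification of U12 and U4, had 2.37 and 1.62 CPM in A and 7.99 and 8.93 CPM in D, a log2 fold change of 2.00 ± 0.50 (edgeR adjusted p 0.00903), and its host SNHG22 was higher by 2.66. In C2 it had a count of 1, and it is among the 16 all-or-none members. SCARNA5 had 320 and 499 counts in A and 832 and 941 in D and was just under the 2-fold limit (log2 fold change 0.998, adjusted p 0.00112), while its host ATG16L1, an autophagy gene, changed by 0.06. SCARNA13 was higher by 0.82 (adjusted p 0.0149). SCARNA2, which guides modification of U2, had 244 and 332 counts in A and 48 and 8 in D, a log2 fold change of -3.47 ± 0.76 (adjusted p 0.00444). An overlapping row with the same start, AL356488.2, had 1 count in both A samples and 94 and 18 in D, and with the 2 rows summed the log2 fold change was -1.90 ± 0.55 (adjusted p 0.0179). D2 was the lowest of all samples for this sum, with 26 counts.

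Of the H/ACA snoRNAs, SNORA17 (3.37), SNORA5C (1.70) and SNORA22 (1.66) were higher in D, and SNORA54 (-1.78) and SNORA4 (-1.08) were lower. SNORA17 had 2 and 1 counts in A and 19 and 18 in D, a CPM 12.1 times higher with an exact 95% counting interval from 3.81 to 61.1. It is also among the 16 all-or-none members, lies in an exon of SNHG7, whose own log2 fold change was 0.04, and had 11 and 20 counts in B, 11 in C1 and 1 in C2, so that low counts were seen in 3 samples of A-C only. SNORA4, of the translation factor gene EIF4A2, had 72 and 95 counts in A and 38 and 48 in D. The C/D snoRNAs SNORD30 (-1.40) and SNORD91B (-1.31) were lower in D, and of the U3 copies SNORD3B-1 was higher (2.70) and SNORD3B-2 lower (-1.47). SNORD3B-1 had 33 and 181 counts in D1 and D2, so its 2 control samples of this line set lay far apart. SNORD87 was higher by 1.10 (adjusted p 0.0446). Only SCARNA2 kept its call in all 12 fits that left out a sample, and without A2, A1 or D2 the count of called members was 6, 7 or 8.

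Hosts were found by position for 80 of the 87 members, in 61 genes, of which 16 members lay in genes of ribosomal proteins, 22 in noncoding genes and 42 in other coding genes. In D against A, member and host had log2 fold changes of the same sign in 64 of 77 pairs, with a Pearson correlation of 0.46 and a Spearman correlation of 0.47 across pairs. SCARNA2 is left out of these counts, because its partner AL356488.2 is an overlapping row with the same start. For the 45 pairs in which the member lay outside exons of other genes, this was so in 38, with correlations of 0.54 (Pearson) and 0.57 (Spearman) across pairs from 37 hosts, a subset chosen after the data were seen. These pairs share libraries and depth, several members share a host, and no p is given. In 3 of the 12 pairs whose host was called, the member was called too, beside 10 called members over all 77 pairs. The 3 were SCARNA17 with SNHG22, SNORD91B with the ribosome assembly gene TSR1 (-1.25) and SNORA79B with CCNB1IP1 (-1.09). SNORA79B is named here because of that pair, after its value of -1.10 was seen. SCARNA7 did not follow its host. KPNA4 had a log2 fold change of -1.56 in D against A, whereas SCARNA7 differed by 0.10 ± 0.17, so that its counts were 4.26% to 5.45% of those of KPNA4 in A and 14.0% to 16.8% in D.

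At 200 ng/ml against control no host was called, and the sign was shared in 42 of 77 pairs, with a Pearson correlation of 0.14, or 0.23 over the 45 pairs outside exons. Without C2 it was shared in 38 of 79 pairs, with a correlation of -0.02 (0.12 outside exons). In the medians of hosts that follow, a host is counted once for each of its members. The ribosomal protein hosts had a median log2 fold change of -0.34, ranging from -0.55 to -0.08, and their 16 members a median of -0.16. The noncoding hosts had a median of 0.07, which is the value of SNHG1, a host of several members, and their members had one of -0.21. The other coding hosts had 0.14 and their members 0.04. Without C2 the medians of the hosts were -0.33, 0.07 and 0.10 in that order, and those of the members -0.20, -0.21 and 0.03.

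**Figure D5:**
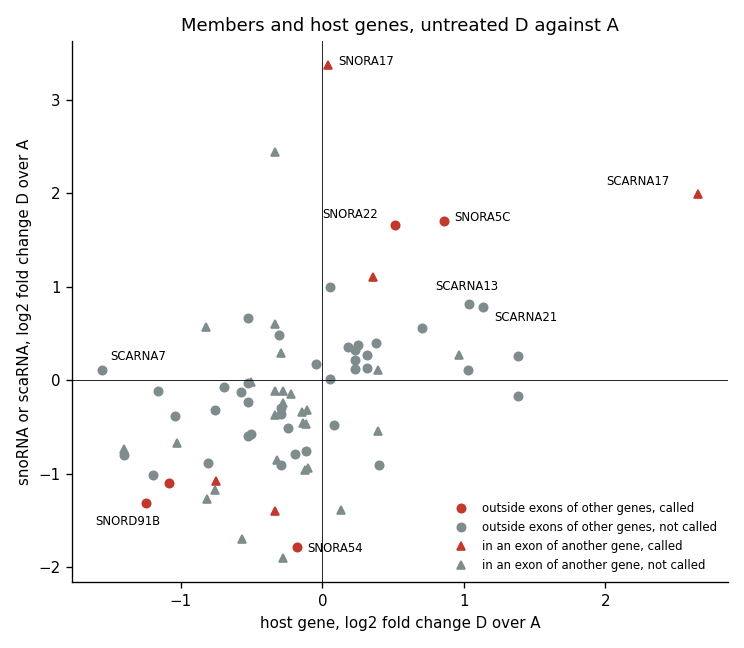
Each point is a member, with its log2 fold change in untreated D over A on the vertical axis and that of its host gene on the horizontal axis. Circles lie outside exons of other genes, triangles within them, called members are red, and SCARNA2 is left out because its partner is an overlapping row and not a host.

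The mRNAs of the particle proteins were measured with more counts and none was called at 200 ng/ml. All values below are RNA levels, and protein was not measured. Of 4 core proteins of C/D particles none was called, the largest log2 fold change being that of SNU13 (0.73), with NOP58 at 0.31, NOP56 at 0.14 and fibrillarin (FBL) at -0.13. Of 4 core proteins of H/ACA particles GAR1 had 0.32, dyskerin (DKC1) 0.19, NOP10 -0.15 and NHP2 -0.34. None of 17 assembly factors, 9 processing and decay factors, 21 noncoding hosts and 9 other structured RNAs was called. In untreated D against A, DKC1 (-1.09) and the assembly factor TCOF1 (-1.02) were called lower, as were RPPH1, the RNA of RNase P (-1.33), and the minor spliceosomal RNA RNU12, which had 20 and 39 counts in A, 0 in both B samples, 5 and 0 in C and 0 in all 6 samples of D-F, so that its counts do not separate the line sets. Of the 21 noncoding hosts listed here, SNHG14 and PWAR6 were called, both higher, and neither holds a member. The list leaves out some noncoding hosts of members that were also called higher, among them SNHG22 and MIR31HG, the host of SNORD39 (1.03, edgeR adjusted p 0.00718).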

How the data were processed

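RNA of 12 samples (3 doses, 2 line sets, 2 replicates) was analysed. The authors deposited an estimated count per gene, as whole numbers not scaled for depth, and a TPM value scaled for length and depth. Per the submitters' processing notes the tools were Trimmomatic 0.36, HISAT2 2.1.0 and StringTie 1.3.3b on GRCh38 (p10). Whether the strand entered the counting is not given in the sources used here. The deposited FPKM values were not used.

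Counts were fitted with edgeR 4.0.16 in R 4.3.3 (TMM, filterByExpr, quasi-likelihood test, 1 fit of the 6 letters, Benjamini-Hochberg over 19944 genes). SE is the log2 fold change over the square root of F, and intervals are 95%. The common biological coefficient of variation was 0.196. A count of 3, taken as the floor, is 0.187 to 0.285 CPM per sample, and intervals on counts cover counting error only. Nothing in the labels says that replicates came from separate cultures, so p-values measure the spread between these samples, which may be technical. Fits were tested on simulated data. DESeq2 1.42.0, RLE normalization, no filter, a replicate block, left-out samples, only the groups compared, an unadjusted p and members with a mean count of 50 or more were alternatives.

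Positions, hosts and sequences came from GENCODE release 29, where all 87 members were found at the same position, 4 under another name. A host is a gene on the same strand whose span holds the member, and 8 members had more than 1. Named members were the 3 of highest mean TPM per class, up to 5 called members with the highest and 5 with the lowest change per contrast (with the 5 smallest p where fewer than 5 were called), and the members known for pre-rRNA cleavage. The members, lists and tests were chosen with earlier results of these data known. Python 3.11.15, pandas 2.3.3, numpy 2.4.6 and matplotlib 3.10.9 made tables and figures.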

Additional observations from a re-analysis of the deposited data

Results flagged for a closer look

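The response to 200 ng/ml differed between the line sets (D-F minus A-C, edgeR interaction contrast) for SNORD87 by 3.54, for SNORD11B by -2.50 and for SCARNA7 by -1.47 on the log2 scale, as described above. These were 3 of 86 members, and of the 12 fits that left out a sample 1, 0 and 7 called them, in that order.

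Within a dose group of 4 samples, a sample was flagged when set apart from the other 3 by most of the group's range, however small. This held in 12 of 132 groups of values tested (9.09%). At 0 ng/ml these were SCARNA12 in A1 (5.60 CPM, the next sample having 1.18), SNORD14A in A2 (1.31 CPM, next 1.03), SNORD22 at 62852910 in D2 (3.36 CPM, next 0.552) and SNORD3B-1 in D2 (12.1 CPM, next 2.27). At 20 ng/ml it was SNORD22 at 62852910 in B2 (3.03 CPM, next 0.179). At 200 ng/ml SCARNA2 was high in C1 (14.2 CPM, next 4.39), SNORA1 in C2 (3.42 CPM, next 0.0867), SNORA18 in C1 (7.09 CPM, next 0.0951), and the SNORD22 rows at 62852910 and 62854161 in C1 (2.87 and 2.02 CPM, next 0.0951 in both). SNORA73B was low in F1 (17.3 CPM, next 20.01) and SNORD14B in C1 (0.0844 CPM, next 2.70). Of these 12, 1 was in C2. SNORD22, SNORA1, SNORA18 and SNORD14B are among the members with all-or-none counts. The rule flags about 1 in 20 groups of independent normal values. Low and all-or-none counts, and members named from these same data, make that rate no yardstick for the 12 groups.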

How the results depend on the processing

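Each of the following counts is of called members. With an unadjusted p of at most 0.05 it was 3 at 200 ng/ml, 4 at 20 ng/ml, 3 between the doses, 12 in A-C, 3 in D-F and 13 for the difference between line sets. DESeq2 gave 2 at 20 ng/ml. Without the filter on low counts it was 3 in A-C and 1 for the difference, and with only the groups compared it was 0 in A-C and 2 in D-F (SCARNA12 higher, the SNORD22 row at 62854161 lower). Among members with a mean count of 50 or more it was 1 in A-C (SCARNA7), 1 for the difference and 3 for D against A. For members outside exons of other genes, chosen after the data were seen, it was 7 for D against A. Replicate numbers did not pair the samples, the deviations of same-numbered samples correlating by -0.03 to 0.05, and with the replicate block the count was 2 in A-C (SCARNA7 and SNORD87), 0 for the difference and 6 for D against A. Leaving out each sample in turn gave 0 to 3 at 200 ng/ml, 0 to 1 at 20 ng/ml, 0 between the doses, 0 to 6 in A-C, 0 in D-F, 0 to 3 for the difference and 6 to 12 for D against A. Class medians at 200 ng/ml then ranged from -0.175 to 0.0503 for C/D and from -0.42 to -0.0017 for scaRNAs, and the H/ACA median was -0.20 over members with a mean count of 50 or more. RLE normalization moved no count by more than 1.5 times. The log2 ratio of 200 ng/ml to control stayed within 1 SD of its main value for the 3 class sums under every alternative. That SD is pooled over the replicates of all letters and includes the gap between C1 and C2. Leaving out each sample gave log2 ratios of -0.35 to -0.10 for C/D, -0.0548 to 0.0387 for H/ACA and -0.0353 to 0.1075 for scaRNAs. The size for C/D and the sign for H/ACA and scaRNAs thus depended on single samples. Of 1033 alternatives for single named members, 889 left the call as it was, 139 lost it, 5 gained it and 0 reversed a called direction. They include fits of each named member at 200 ng/ml over both line sets. No member was called there and no call could be lost, so 889 does not measure how stable the calls were. The 139 losses were all of calls made in A-C, for the difference or for D against A. The cause of these changes was not tested, and low counts and 2 replicates per letter limit the precision.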
